A study of Drosophila melanogaster with 4 samples.

Results

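The eIF4E paralogs of Drosophila melanogaster are 7 genes for proteins that recognise the cap at the 5′ end of messenger RNA, namely eIF4E1, eIF4EHP, eIF4E3, eIF4E4, eIF4E5, eIF4E6 and eIF4E7. They were chosen by symbol in the gene annotation and not by a measured value, although earlier results of these data were known. They make up 7 of the 13945 protein-coding genes on the 6 main chromosome arms. The histone mark H3K4me3, 3 methyl groups on lysine 4 of histone H3, was profiled in ovaries by chromatin immunoprecipitation and sequencing (ChIP-seq) in 4 libraries, 2 of lid KD and 2 of control ovaries. In lid KD females (MTD-Gal4>shRNA lid) a germline driver switched on a hairpin RNA that targets lid, whose product Lid/KDM5 removes this mark, and control females (MTD-Gal4>+) carried the driver alone. The comparison addresses what loss of maternal Lid does to H3K4me3 in the ovary. Every female of both groups carried the driver, and each library came from a pool of ovaries. MTD-Gal4 acts in germ cells and not in the somatic follicle cells, which are part of the same ovary, so fewer marked cells and less mark per cell cannot be told apart. The labels give the age of the females as 3 days in one field and 0 to 1 day in another, and the study's methods give a further age. Libraries are called lid KD 1, lid KD 2, control 1 and control 2 after their replicate numbers, and values of 4 libraries follow that order. RNA was not measured in these lists, so the knockdown was not checked from them.

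In a cell, a cap-bound eIF4E recruits the scaffold protein eIF4G and the helicase eIF4A and thereby brings the ribosome to the messenger RNA. eIF4E1 is the general member of the family. eIF4EHP binds the cap without binding eIF4G and so blocks translation, which is best known for the maternal caudal and hunchback messages of the early embryo. eIF4E3 is needed for male meiosis, and the other genes are known mainly for expression in the testis. H3K4me3 marks the start of transcribed genes, typically just downstream of the start site, and in an ovary a gene used only in the testis offers a contrast to a gene used in every cell.

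The sequences around the first start site set the paralogs with a peak beside those without one. Each runs 5′ to 3′ on the strand of the gene, from 90 bases before the start to 30 bases from the start on, and was read from the RefSeq Release 6 genome. Capitals mark matches to 6 motifs searched on both strands, which were the DRE (TATCGATA, the site of the factor DREF), the TATA box (TATAAA), the initiator (TCAGT), an E-box (CAGCTG), the core of motif 1 (GGTCACAC) and the GAGA site (GAGAG).
eIF4E1: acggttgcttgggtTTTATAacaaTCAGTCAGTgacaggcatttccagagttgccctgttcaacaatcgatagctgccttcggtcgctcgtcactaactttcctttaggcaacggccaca
eIF4EHP: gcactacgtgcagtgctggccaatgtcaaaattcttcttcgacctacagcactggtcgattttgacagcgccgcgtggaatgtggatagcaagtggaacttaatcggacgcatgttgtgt
eIF4E6: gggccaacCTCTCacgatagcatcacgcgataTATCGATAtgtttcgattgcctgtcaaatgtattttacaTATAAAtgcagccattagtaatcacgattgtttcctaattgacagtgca
eIF4E3: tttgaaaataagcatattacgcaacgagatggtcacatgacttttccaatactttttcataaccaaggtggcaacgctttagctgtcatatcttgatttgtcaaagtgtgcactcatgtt
eIF4E7: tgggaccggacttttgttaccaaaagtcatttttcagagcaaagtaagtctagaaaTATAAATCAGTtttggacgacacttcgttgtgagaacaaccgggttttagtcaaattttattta
In genome coordinates these windows are chr3L:9402431-9402550 for eIF4E1, chr3R:24108931-24109050 for eIF4EHP, chr3R:29027145-29027264 for eIF4E6 (all on the minus strand), chr3L:8229134-8229253 for eIF4E3 (plus strand) and chrX:1162360-1162479 for eIF4E7 (minus strand).

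A DRE stood in 1 of these windows, that of eIF4E6, at bases -58 to -51. A DRE was present in 7.27% of all 13945 promoter windows of this length, in 13.6% of the 6735 with an H3K4me3 peak in all 4 libraries and in 1.02% of the 4814 with a peak in none. The TATA box went the other way, with 20.5% of all windows, 13.6% of those with a peak in all libraries and 27.4% of those with a peak in none. The initiator did the same (33.1%, 25.2% and 40.8%). The eIF4E7 window held a TATA box at -34 to -29 and an initiator at -28 to -24. The eIF4E6 window also held a TATA box at -19 to -14 and a GAGA match on the opposite strand at -82 to -78. The eIF4E1 window held an opposite-strand TATA box at -76 to -71 and a pair of initiator matches, at -66 to -62 and -62 to -58, that share 1 base. In eIF4E4 the single match was an initiator at -13 to -9, and in eIF4E5 an opposite-strand TATA box at -78 to -73. No motif of the 6 matched in eIF4EHP or eIF4E3. The E-box (10.3% of all windows), the motif 1 core (5.69%) and the GAGA site (15.2%) completed the search. Like the DRE, the motif 1 core was more frequent with a peak in all libraries (11.0%) than in none (0.353%). The E-box went the same way (15.7% and 4.88%), and the GAGA site differed less (13.7% and 15.6%). A match describes the letters only, and binding of a factor was not measured. Every run of 50 bases within 500 bp of the first start site of each paralog occurred once in the genome (952 of 952 for each), so the filter for unique alignment leaves these windows readable and the paralogs can be told apart.

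A peak is an interval where the peak caller found more fragments than its background, and a promoter peak is one that shares at least 1 base with the 500 bp on either side of an annotated start site. By this rule 3 of the 7 paralogs, eIF4E1, eIF4EHP and eIF4E6, had a promoter peak in all 4 libraries, against a background of 48.3% of all protein-coding genes. The other 4, eIF4E3, eIF4E4, eIF4E5 and eIF4E7, had no promoter peak in any library, as for 34.5% of genes. They also had no peak over the gene body, and 24.8% of genes had neither kind of peak in any library. The count was 3 in lid KD 1, lid KD 2, control 1 and control 2 alike, where the background was 51.5%, 52.4%, 52.9% and 62.0%. A peak seen in both libraries of 1 group and in no library of the other occurred at 0 of the 7 paralogs, against 0.179% of genes for lid KD and 0.810% for control. An exact two-sided permutation test over the 4 libraries gave p = 1 for the count. The smallest p that 2 against 2 libraries allow is 0.333, so no comparison here could pass 0.05.

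The libraries were uneven in 1 respect that touches every value. The peak caller listed 12832, 13501, 12087 and 25302 peaks. The background of each list, which stands for depth, was 55.5, 56.6, 60.1 and 48.4 fragments per base. It is the background value found most often at the peaks of that list. Over 8829 regions called in all libraries, the robust SD of the difference between the 2 lid KD libraries was 0.995 times the counting error, against 2.25 times for the 2 control libraries and 2.87 to 4.00 times between groups. Across regions the lid KD libraries thus differed by no more than sampling noise and may stand for 1 sample, although single places differed by more (the eIF4EHP pileup by 2.88 counting errors). The p-values given are over the 4 libraries. With the lid KD libraries counted as 1 sample the smallest exact p is again 0.333, and of the 13 p-values for the count and the strongest peaks, 2 changed, both upward, as given beside them. Markers of follicle cells (6 of 6 genes) had promoter peaks in every library, against 51.5%, 52.4%, 52.9% and 62.0% of all genes. The median of their mean ranks was 43.0. Over genes with a peak in all libraries, the median rank was 76.9 to 78.3. Germline markers had them for 7, 7, 6 and 5 of 8 genes (vas in none). Of these, bam was stronger in both lid KD libraries (fold enrichment 2.37 and 2.34, against 1.35 and 2.07 in control). It was the 1 gene of the marker lists that moved in rank by the 10-point rule given below. Of genes with a promoter peak in all libraries, 1.44% moved upward. The bam rank was 0.736 in control 1 and 0 in control 2, where its peak fell below the list shortened for ranking. A weak aub promoter peak was in both lid KD libraries (1.98 and 2.21) and in neither control library, as for 0.179% of genes. The ranks of nos went the other way (77.2 and 74.2 in lid KD, against 85.6 and 84.3 in control). Of the 5 germline markers with a peak in all libraries, both lid KD ranks lay above both controls for 2 and below for 1. Promoter peaks were found for testis markers at 0, 0, 0 and 1 of 6 genes and for muscle and nerve markers at 2, 2, 1 and 2 of 4 genes. The peak of the nerve marker nSyb also held a start of Mettl2, and those of nos and otu a start of CG11779 and CG33181.

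**Figure D1:**
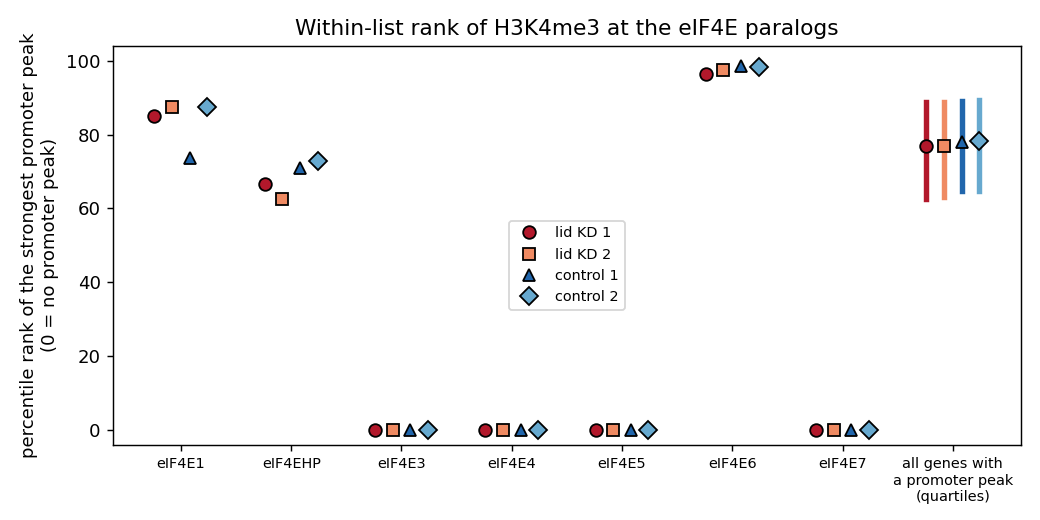
Percentile rank of the strongest promoter peak (vertical axis, 100 the strongest, 0 no promoter peak) for each paralog in lid KD 1, lid KD 2, control 1 and control 2. On the right, symbols are medians and bars the quartiles over the 6735 genes with a promoter peak in all libraries. eIF4E6 lay above 96 in every library, eIF4E1 and eIF4EHP between 62.5 and 87.4, and the other 4 paralogs at 0.

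The strength of a peak is given by fold enrichment, the ratio of the fragment pileup at the summit to the local background of the same library, as the authors deposited it. Since the lists differ in length, each was shortened to its 12087 strongest peaks and a peak was given its percentile rank among them. Over the 6735 genes with a promoter peak in all libraries, the median fold enrichment was 6.20, 6.08, 5.37 and 6.76 and the median rank 76.9, 77.0, 77.9 and 78.3. By mean rank over the libraries, eIF4E6 (97.7) stood above 96.1% of these genes, eIF4E1 (83.4) above 63.0% and eIF4EHP (68.2) above 32.2%. By fold enrichment eIF4E6 ranked highest of the 3 in each library, and eIF4E1 ranked above eIF4EHP. The order depends on the measure. Ranked by summit coverage, which is defined below, eIF4EHP was the highest in each library (90.7, 86.0, 90.3 and 90.8), then eIF4E6 (81.1, 83.7, 86.1 and 82.6), then eIF4E1 (63.6, 65.4, 65.5 and 67.6). Control 1 and control 2 differed by 13.7 points at eIF4E1, so in control 1 eIF4E1 (73.7) and eIF4EHP (70.8) lay close to each other.

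eIF4E1 (FBgn0015218, chr3L:9399618-9402460, minus strand, dm6) has 9 annotated transcripts from 4 start sites, at 9402460, 9402225, 9402137 and 9401805. It carried H3K4me3 at a pair of places. The first was at the start sites. There the peak was chr3L:9402094-9402430 in lid KD 1, chr3L:9402086-9402431 in lid KD 2 and chr3L:9402071-9402444 in control 2. In control 1 it was part of a single long peak, chr3L:9400565-9402497, that ran into the coding region. The summits lay within 10 bp of the start at 9402225, which 3 transcripts use, in 4 of 4 libraries. Fold enrichment at this place was 6.26 and 6.24 in the lid KD libraries, against 4.89 in control 1 and 6.81 in control 2. The control values fell on both sides of the lid KD values.

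Coverage, the summit pileup divided by the background of the list, removes the local background from the comparison. At the eIF4E1 start-site summit it was 11.9 (95% exact Poisson interval 11.0 to 12.8) and 11.5 (10.6 to 12.4) in the lid KD libraries, against 11.1 (10.3 to 12.0) and 11.0 (10.1 to 12.0) in the controls. The 4 intervals overlapped. The pileups behind them were 659, 652, 666 and 532 fragments, and the intervals cover counting error only. Where only peaks with their summit in the promoter window were used, the difference of lid KD minus control means was 0.08 on the log2 scale of coverage (exact permutation p = 0.333) and 0.11 on that of fold enrichment (exact permutation p = 1).

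The other place was in the coding sequence of eIF4E1 and was the stronger in each library where it had a summit of its own. The peak was chr3L:9400588-9401310 in lid KD 1, chr3L:9400601-9401310 in lid KD 2 and chr3L:9400627-9401316 in control 2. Its summit fell in the second coding exon (chr3L:9400583-9400953), 168, 174 and 201 bp downstream of the start codon at 9401096 that 8 of 9 transcripts use. Coverage was 15.4 (14.4 to 16.5) in lid KD 1, 15.8 (14.8 to 16.8) in lid KD 2 and 15.0 (14.0 to 16.2) in control 2. In each of these 3 libraries this interval lay wholly above that of the start-site summit. GC content in the 500 bp around the summit was 54.6%, 54.8% and 54.2% here, against 44.4%, 44.6% and 44.4% at the start site, and its part in the difference was not tested. No value can be given for control 1, where the single peak of 1933 bp covered both places and had its summit at the start site. Weak peaks were listed in both lid KD libraries in between, at chr3L:9401534-9401750 (fold enrichment 1.89) in lid KD 1 and chr3L:9401528-9401759 (1.65) in lid KD 2. Near the 3′ end of the gene there were others, at chr3L:9399904-9400062 (1.81) in lid KD 1 and chr3L:9399923-9400169 (1.47) in lid KD 2. Control 2 had no peak at either place, and in control 1 the long peak covered only that in between. Beyond the gene, a peak in a 5′ UTR exon of CG4080 had a fold enrichment of 9.65, 9.29, 5.11 and 11.1.

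**Figure D2:**
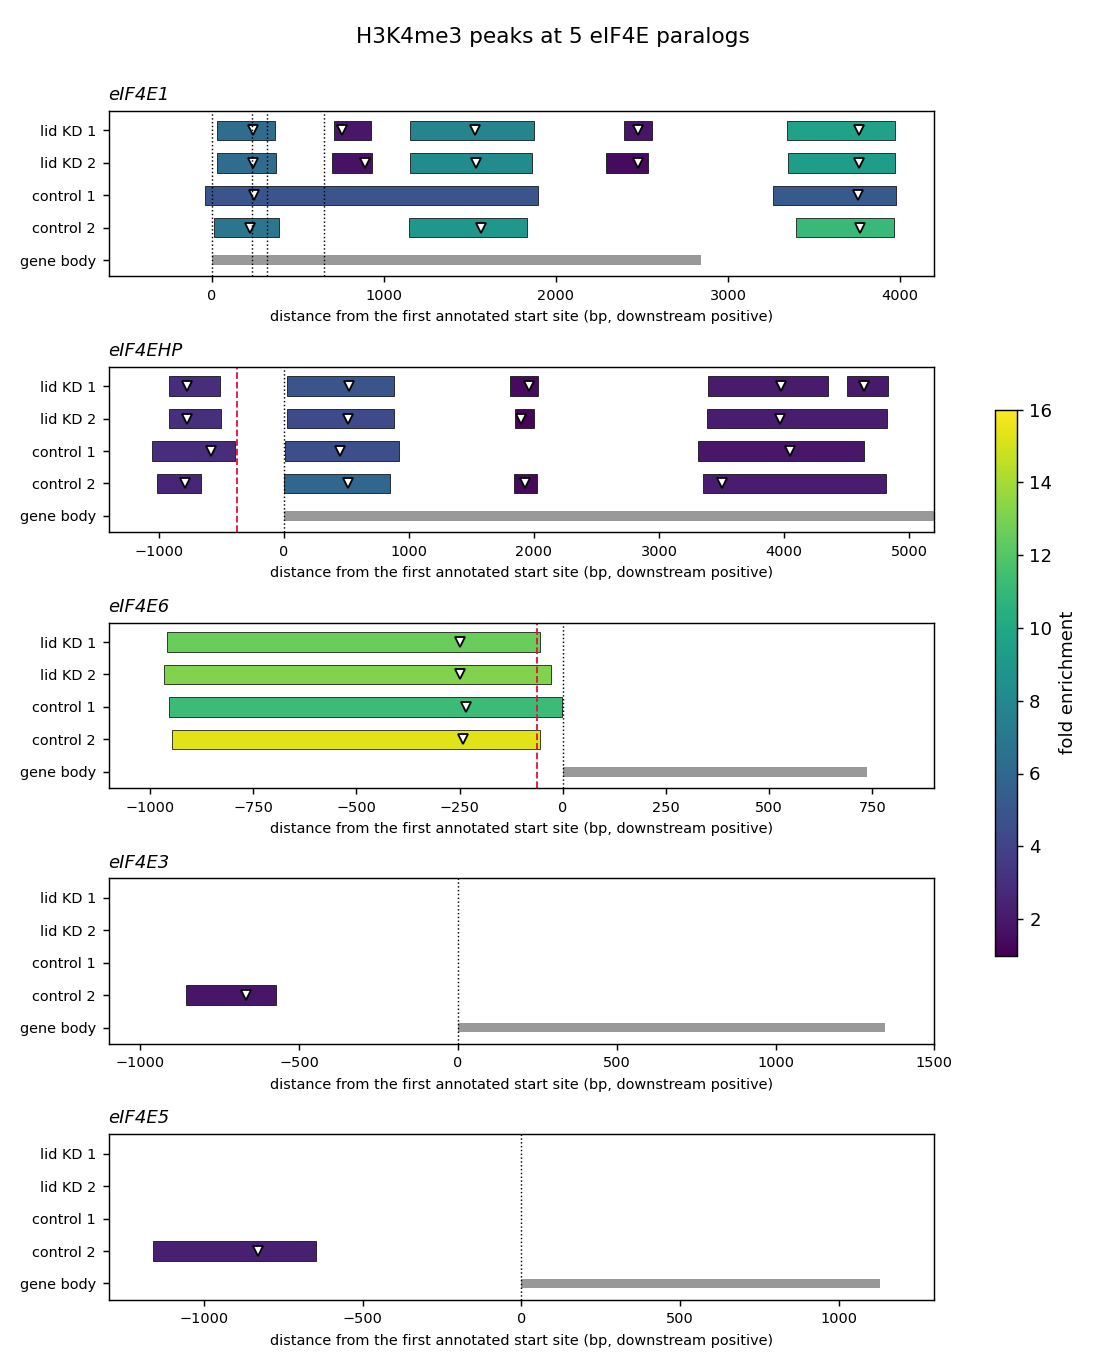
H3K4me3 peaks in each library (bars, coloured by fold enrichment, triangles at the summits) along the distance in bp from the first annotated start of eIF4E1, eIF4EHP, eIF4E6, eIF4E3 and eIF4E5. Grey bars are gene bodies, dotted lines start sites of the paralog and red dashed lines start sites of a neighbour. The eIF4E6 peaks end before the eIF4E6 gene body, and eIF4E3 and eIF4E5 have a peak nearby in control 2 only.

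The coding-exon peak reached into the window of the most downstream start at 9401805 and, being the strongest, supplied the promoter value of eIF4E1 in 3 libraries. The strongest-peak fold enrichment was 7.77 and 8.18 in lid KD ovaries, against 4.89 and 8.92 in control ovaries, and the groups overlapped. The difference was 0.27 on the log2 scale (exact permutation p = 1), less than the 0.87 between the 2 control libraries. The rank was 85.1 and 87.3 against 73.7 and 87.4. The difference of means was 5.63 points (exact permutation p = 1), and -1.21 points without control 1. The width was 723 and 710 bp against 1933 and 690 bp, a difference of -0.69 on the log2 scale that was 0.054 without control 1. Strongest-peak coverage was 15.4 and 15.8 in lid KD, against 11.1 in control 1, read at the start site, and 15.0 in control 2. The groups did not overlap (difference 0.27 on the log2 scale, exact permutation p = 0.333, or 0.667 with lid KD as 1 sample), and the difference was 0.052 without control 1. Both lid KD libraries lay above both controls in coverage for 38.1% of the 6712 genes with a value. The median difference of these genes was 0.26, about that of eIF4E1.

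eIF4EHP (FBgn0053100, chr3R:24063077-24108960, minus strand) spans 45884 bp and has 1 start site, used by 4 transcripts. Its promoter peak lay just inside the gene, at chr3R:24108081-24108934 in lid KD 1, chr3R:24108080-24108936 in lid KD 2, chr3R:24108040-24108947 in control 1 and chr3R:24108109-24108955 in control 2. The start itself, 26, 24, 13 and 5 bp away, was outside the peak in every library. The summit was 519, 513, 451 and 511 bp downstream of the start. It fell in the 5′ UTR exon in control 1 and in an intron in the other libraries. A summit farther than 500 bp from every start in all 4 libraries was seen in 15.3% of the 6735 genes, and eIF4EHP just missed that description in control 1.

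Fold enrichment at eIF4EHP was 4.88 and 4.37 in lid KD ovaries, against 4.59 and 5.87 in control ovaries. The groups overlapped, and the difference of -0.17 on the log2 scale (exact permutation p = 0.667, or 1 with lid KD as 1 sample) was less than the 0.36 between controls. Its rank was 66.5 and 62.5 against 70.8 and 73.0. Both lid KD ranks lay below both control ranks, with a difference of means of -7.40 points (exact permutation p = 0.333), larger in size than the 2.12 points between controls. The same order of ranks was found for 40.0% of the 6735 genes. It held at 2 of the 3 paralogs with a peak, eIF4EHP and eIF4E6. A gene was said to move in rank when both lid KD libraries lay at least 10 points from both controls. That was so for 0 of the 3 paralogs, against 1.44% of genes upward and 1.38% downward.

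Coverage at the eIF4EHP summit was 29.7 (28.3 to 31.2) and 25.9 (24.6 to 27.3) in lid KD ovaries, against 19.4 (18.3 to 20.5) and 30.8 (29.3 to 32.4) in control ovaries. The control libraries thus lay on both sides of the lid KD libraries and farther apart than counting error. The difference of 0.18 on the log2 scale (exact permutation p = 1) was less than the 0.67 between controls, and was -0.15 without control 1. This summit was higher in coverage than that of eIF4E1 in every library while its fold enrichment was lower than the strongest of eIF4E1. Its local background was 6.07, 5.92, 4.20 and 5.23 times that of the list, against 1.97, 1.91, 2.25 and 1.67 times at eIF4E1. Width was 854 and 857 bp in lid KD, against 908 and 847 bp in control, a difference of -0.04 on the log2 scale (exact permutation p = 1).

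**Figure D3:**
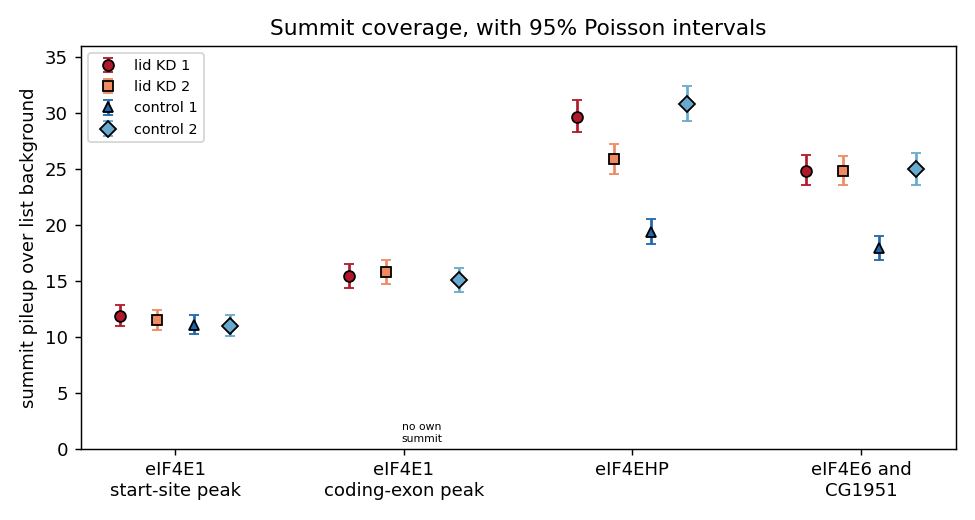
Summit coverage (pileup divided by list background) with 95% Poisson intervals at the eIF4E1 start-site and coding-exon peaks, at eIF4EHP and at the peak shared by eIF4E6 and CG1951, in the 4 libraries. Control 1 is the lowest at eIF4EHP (19.4) and at eIF4E6 (17.9), and has no summit of its own at the eIF4E1 coding exon.

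Weaker peaks lay along the eIF4EHP gene. The nervous system gene Syx1A, a syntaxin of synaptic vesicle release, is nested in an intron of eIF4EHP, and the peak at its 5′ end had a fold enrichment of 2.08, 2.14, 1.90 and 2.18. A peak in an eIF4EHP coding exon, near chr3R:24106924-24107152, had 1.47 and 1.21 in lid KD ovaries and 1.40 in control 2, and none was listed in control 1. CG18428, which starts 376 bp upstream on the other strand, had its own peak with 2.90, 3.05, 2.89 and 2.59, and this peak reached within 500 bp of the eIF4EHP start in control 1 only. In control 2, 5 further intron peaks of 1.82 to 2.41 were listed that no other library had.

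eIF4E6 (FBgn0039622, chr3R:29026439-29027174, minus strand) is the shortest of the family, with 522 coding nucleotides. Its promoter peak was the strongest of the 7 genes by fold enrichment and by rank, yet shared no base with the gene in any library. The peak was chr3R:29027229-29028133 in lid KD 1, chr3R:29027203-29028140 in lid KD 2, chr3R:29027176-29028127 in control 1 and chr3R:29027230-29028121 in control 2, and ended 55, 29, 2 and 56 bp before the eIF4E6 start. It covered the start of the divergent neighbour CG1951 (FBgn0039623, plus strand), whose start at chr3R:29027236 is 62 bp away. The summit was 187, 188, 172 and 180 bp downstream of the CG1951 start, in a CG1951 coding exon, and 249, 250, 234 and 242 bp upstream of the eIF4E6 start. The DRE of the printed eIF4E6 window lay between these starts (chr3R:29027225-29027232), 4 to 11 bases upstream of that of CG1951. A promoter peak with no base in the gene in any of the 4 libraries was found for 1037 of 6735 genes (15.4%).

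The values therefore describe a peak on the CG1951 side of a shared promoter. Fold enrichment was 12.6 and 13.2 in lid KD ovaries, against 11.2 and 15.3 in control ovaries, and the groups overlapped (difference -0.02 on the log2 scale, exact permutation p = 1, against 0.44 between controls). The rank was 96.4 and 97.4 in lid KD and 98.6 and 98.3 in control. The groups did not overlap, with a difference of -1.53 points (exact permutation p = 0.333) beside a median of -1.27 points over the 6735 genes. Coverage was 24.9 (23.6 to 26.2) and 24.8 (23.6 to 26.2), against 17.9 (16.9 to 19.0) and 25.0 (23.6 to 26.4), so that control 1 stood apart from the other 3 libraries. The coverage difference was 0.23 on the log2 scale (exact permutation p = 1), and -0.0059 without control 1. Width was 905 and 938 bp against 952 and 892 bp.

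Across the 3 paralogs with a peak, fold enrichment of the groups overlapped at each, where 18.9% of the 6735 genes had both lid KD values above both controls and 10.7% both below. Width overlapped at each as well, with 23.0% and 12.9% as the matching shares. A change in width of at least 1.5 times without overlap, found for 2.51% of genes as wider and 3.99% as narrower in lid KD, was met by 0 of the 3. Coverage was above both controls at 1 of the 3, eIF4E1, where control 1 was read at another place than the other libraries, against 38.1% of genes, and below both at 0 (1.80% of genes).

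eIF4E3 (FBgn0265089, chr3L:8229224-8230568), eIF4E4 (FBgn0035709, chr3L:6664224-6665641), eIF4E5 (FBgn0035823, chr3L:7894880-7896009) and eIF4E7 (FBgn0040368, chrX:1158599-1162389) each have 1 transcript. Their starts are 2175 to 8439 bp from the nearest start of another protein-coding gene, a range that also holds eIF4E1 (2337 bp), while eIF4EHP (376 bp) and eIF4E6 (62 bp) are closer to a neighbour. At the background of each list, the weakest peak that was listed had a fold enrichment of 1.36, 1.35, 1.34 and 1.34, or a pileup of 76, 77, 81 and 65 fragments. A weaker mark at these genes was not detectable at this depth.

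The nearest peak to the eIF4E3 start, the gene needed for male meiosis, was 9419 and 9436 bp away in lid KD ovaries, against 6464 bp in control 1 and 573 bp in control 2. The control 2 peak was weak (chr3L:8228368-8228651, fold enrichment 1.84), lay in no annotated gene and fell below the shortened list. At eIF4E5 the distances were 16414 and 12303 bp against 16380 and 646 bp. Its control 2 peak (chr3L:7893719-7894234, fold enrichment 2.31, rank 11.0) was in a coding exon of the neighbouring gene CG32365. At eIF4E4 they were 58405 and 58386 bp against 58307 and 2962 bp, and in the first 3 libraries the nearest peak was at the gene Rexo5. At eIF4E7 they were 9094 and 9086 bp against 9597 and 3800 bp. The near peak of each of the 4 genes was thus in control 2, the library with the longest list.

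**Figure D4:**
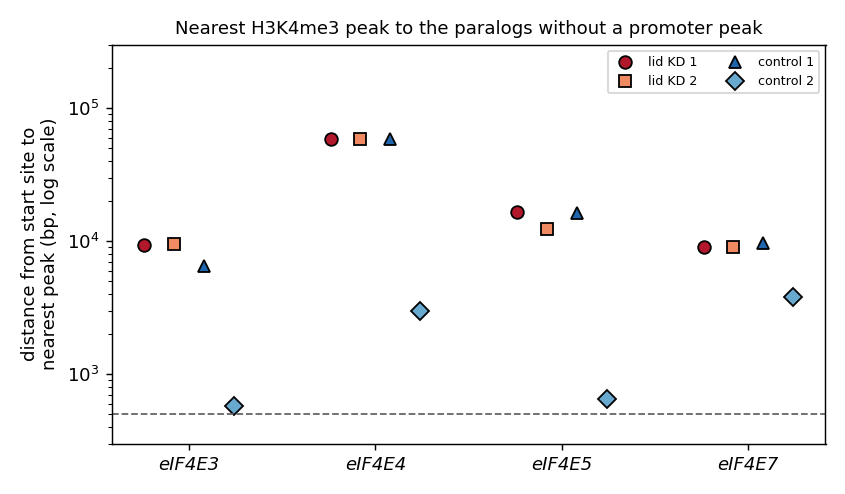
Distance in bp (log scale) from the start site to the edge of the nearest H3K4me3 peak for the 4 paralogs without a promoter peak, in lid KD 1, lid KD 2, control 1 and control 2. The dashed line marks the 500 bp window. In lid KD 1, lid KD 2 and control 1 every distance is at least 6464 bp, and the control 2 distances are the shortest at each gene, down to 573 bp at eIF4E3.

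The genes whose ranks over the 4 libraries lay nearest to those of a paralog, by Euclidean distance among 6551 or 6552 candidates that do not share its peak, are given as a description over 4 points. For eIF4E1 they were CG12576 and Cp110 (a centriole component), which share a peak on the X chromosome and have ranks of 86.3, 86.4, 72.5 and 88.7 (distance 2.38). For eIF4EHP they were CG16812 and Ski6 (an exosome subunit), which share a peak on 2L with ranks of 66.4, 64.5, 72.1 and 73.0 (distance 2.38). For eIF4E6 they were CASK, a membrane scaffold protein, at a distance of 0.664, and CG31342 at 0.709.

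The partners of the family were read from 4 lists. Over all protein-coding genes, 48.3% had a promoter peak in all libraries and 34.5% in none. Of 9 genes of the cap-binding complex, 6 had one in all and 2 in none, and the median of the mean ranks was 61.8. The highest was eIF4G2, the eIF4G paralog needed for spermatogenesis. Its ranks were 93.7 and 94.7 in lid KD ovaries, against 97.5 and 96.2 in control ovaries, with a fold enrichment of 10.9 and 11.1 against 10.2 and 12.8. Its peak also held a start of CG33111, and the summit lay 176, 175, 146 and 199 bp downstream of a start that the genes have in common, so its mark cannot be assigned to 1 gene. Unlike the peak at eIF4E6, it overlapped the gene, by 541 to 959 bases. The initiation factors eIF4B and eIF4H2 had no promoter peak. eIF4G1, the general scaffold partner of eIF4E1, had a promoter peak in control 1 only, with a fold enrichment of 6.79, and is on chromosome 4. It was named after its values were seen, as were the other genes of that kind below, where the limits of this pattern are given.

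Of 12 genes for proteins that bind eIF4E or act with them as repressors, 9 had a peak in all libraries and 0 in none (48.3% and 34.5% of all genes), with a median mean rank of 74.9. The highest was Thor, the 4E-BP that competes with eIF4G for eIF4E. Its ranks were 96.6 and 95.9 in lid KD ovaries, against 89.0 and 93.7 in control ovaries. Both lid KD ranks lay above both control ranks, as for 17.1% of the 6735 genes with a promoter peak in all libraries. The lowest was mxt (Mextli, an eIF4E-binding protein), with a rank of 40.7 in control 1 and weak peaks below the shortened list in the other libraries. Gyf, a partner of eIF4EHP, and me31B, a repressor helicase, had a promoter peak in control 1 only (8.08 and 4.28). 4E-T had one in all but control 2 (11.0 and 9.44 in lid KD, 8.33 in control 1). Gyf and 4E-T are on chromosome 4, as is eIF4G1. Peaks over the gene body are not given for the list genes. For eIF4G1, Gyf and me31B the place and width of the control 1 peak are not given either. The share of all genes with a promoter peak in control 1 only was not counted. Lack of a promoter peak in a library thus does not show that the gene lacked the mark there. All 3 of the other cap binders had peaks in all libraries, from the nuclear cap-binding subunit Cbp80 (ranks 72.5 and 72.5 against 80.4 and 77.9, in a peak shared with Torsin) to larp, a repressor that binds capped messages (60.7 and 60.5 against 64.1 and 62.1).

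Of 13 testis-type genes, 11 had no promoter peak in any library, as did 4 of the 7 paralogs and 34.5% of all genes. The gene mia, a testis paralog of a general transcription factor subunit, was the only one with a peak in all 4, of low rank (38.1 and 39.3 in lid KD, against 37.3 and 38.0 in control), and sa had one in control 2 only (fold enrichment 1.84). In these 4 lists 0 genes moved in rank by the 10-point rule. The rule needs a peak in all libraries, which 6, 9, 3 and 1 genes of the lists had, in the order given above. Of the 6735 genes with such peaks, 1.44% moved upward and 1.38% downward. At shares this low, a count of 0 in lists of this size says little. Without the margin, both lid KD ranks lay above both controls for 2, 2, 0 and 1 genes of the cap-binding, repressor, other cap binder and testis-type lists, and below both for 3, 2, 3 and 0, where the background was 17.1% above and 40.0% below among genes with a peak in all libraries.

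**Figure D5:**
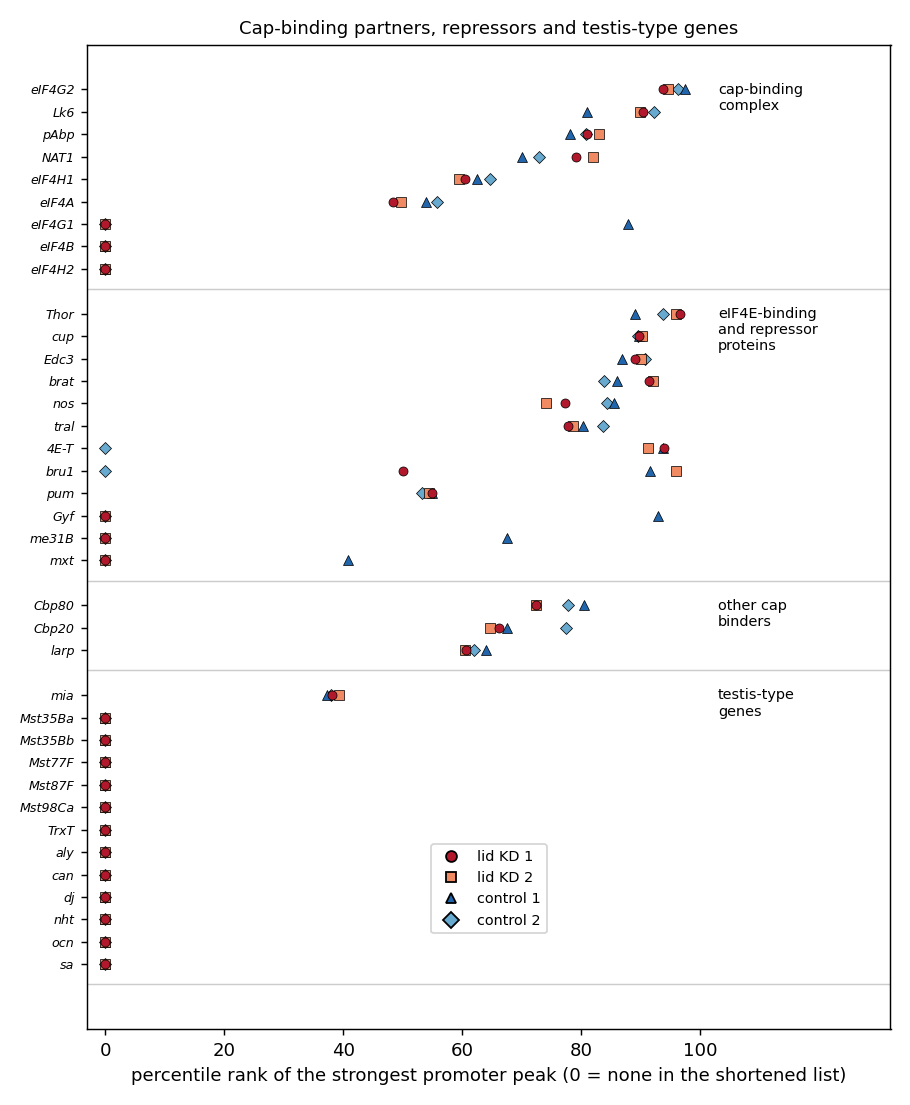
Percentile rank of the strongest promoter peak (horizontal axis, 0 where none is in the shortened list) for the genes of the 4 lists, in lid KD 1, lid KD 2, control 1 and control 2. eIF4G2 and Thor lead their lists, eIF4G1, Gyf, me31B and mxt have a rank above 0 in control 1 only, and the testis-type genes other than mia lie at 0.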

How the data were processed

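H3K4me3 ChIP-seq (antibody ab8580) was compared between 2 lid KD and 2 control libraries. Per the labels and the study's methods, the authors demultiplexed reads with bcl2fastq 2.17.1.14, aligned them to dm6 with Bowtie2 2.3.3, kept unique alignments, removed duplicates with Picard 2.17.10 and called peaks in each library with MACS2 2.1.1 at a q-value threshold of 0.1. Whether an input library was used is not given in the sources used here. The deposited lists give for each peak a fold enrichment (a ratio to the local background, calculated by the authors) and the -log10 of its p-value and q-value. The libraries are described as biological replicates in the study's methods and only numbered in the labels. A permutation p here reflects only how the values of these libraries fall between the groups.

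Start sites came from Ensembl release 115 and sequences from the RefSeq Release 6 genome, both in dm6 coordinates. A promoter peak shared at least 1 base with the 500 bp around a start, and the strongest by fold enrichment was used. Ranks were taken in lists shortened to 12087 peaks. Pileup and background were solved from fold enrichment, taken as (pileup + 1)/(background + 1), and the Poisson p (99.9% or more of peaks solved, all but 5 to 8 per library), which was tested on simulated data. Groups were compared by exact two-sided permutation tests of the 4 libraries. Named genes were the 7 paralogs, genes with a start inside their peaks, the highest and lowest of each list by mean rank, and the 2 nearest genes by rank. Neighbours with a nearby peak, markers and list genes called in some libraries only were named after their values were seen. The members and lists were chosen with earlier results of these data known. The alternatives changed the window, q threshold, overlap rule, list length, rank measure, GC classes and libraries used. Python 3.11.15, NumPy 2.4.6, pandas 2.3.3, SciPy 1.17.1 and matplotlib 3.10.9 were used.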

Additional observations from a re-analysis of the deposited data

How the results depend on the processing

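No exact p could fall below 0.333, so no alternative could bring a comparison below 0.05. Whether a promoter peak was present does not rest on p and did depend on the setting, as given below. Of 139 alternative values, 70 were identical to the reported one, 26 of them by construction (the replicate block and lid KD as 1 sample), 57 differed in size with the same sign or a count within 1.5 times, and 12 changed sign. Leaving out each library in turn, lid KD minus control on the log2 scale ranged from -0.16 to 0.70 for fold enrichment at eIF4E1, -0.35 to 0.0066 at eIF4EHP and -0.24 to 0.20 at eIF4E6. For coverage it ranged from 0.05 to 0.49, -0.15 to 0.52 and -0.0059 to 0.47 in the same order of genes, and for width from -1.43 to 0.054, -0.086 to 0.014 and -0.047 to 0.047. For rank the ranges were -1.21 to 12.5 points, -9.39 to -5.41 points and -2.04 to -1.03 points. With ranks by summit coverage the eIF4E1 rank difference was -2.04 points, against 5.63. At eIF4EHP the rank difference lay between -11.5 points (deposited lists without shortening) and -2.24 points (ranks by coverage) and stayed negative. The number of paralogs with a promoter peak was 3 in every setting but 2. It was 2 in lid KD and 2.5 in control when the summit had to lie in the window, and 3 in lid KD and 4 in control with a window of 1000 bp, where eIF4E3 and eIF4E5 entered in control 2. The cause was not tested. With the replicate number as a block the smallest possible p was 0.5, and the differences stayed the same by construction. Each exact permutation p of 0.333 became 0.5, and that of eIF4EHP fold enrichment rose from 0.667. Same-numbered libraries did not deviate together (r = -0.05 over 6735 genes), so the numbers were not taken as pairs. Where the local background equals that of the list, no peak with a fold enrichment below 1.34 to 1.36 was listed.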
